A study of Mus musculus with 6 samples.

Results

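Untreated cultured eosinophils harvested at 4 h were compared with untreated cultured eosinophils harvested at 1 h, gene by gene. A gene entered the comparison where its level was at least 1 FPKM (fragments per kilobase of transcript, scaled to the size of the library) in at least 1 of the 2 libraries, which kept 10823 of the 22548 gene symbols measured. The series holds 6 libraries, 1 per group, of eosinophils made in culture from marrow of BALB/c wild-type mice aged 4 to 8 weeks. Cells had received either no cytokine, IL-4 (10 ng/ml) or IL-33 (10 ng/ml), for 1 h or 4 h. All 6 shared the same preparation, in which marrow cells of low density spent 4 days with SCF (stem cell factor) and FLT3 ligand, each at 100 ng/ml, and then stayed in IL-5 (10 ng/ml) until day 14. Cells of this kind are eosinophils made in culture and not cells taken from blood or tissue, and the labels do not say how many mice gave marrow to a culture or whether the groups came from 1 culture.

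The comparison asks what differs between the 2 sets of control cells against which the cytokines were measured. With 1 library per time, the time of harvest and the library cannot be told apart, differences could not be checked against replicates and none was tested. "Higher" and "lower" at 4 h below mean at least 2-fold on the scale log2((FPKM at 4 h + 1) / (FPKM at 1 h + 1)), a scale that understates differences of genes with low levels. A gene given as listed at 0 has a deposited value of exactly 0, which can also be a failed estimate, so no fold is given for it.

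Eosinophils are granulocytes that store toxic granule proteins, such as major basic protein (Prg2) and eosinophil peroxidase (Epx), and depend on IL-5 for survival. Immediate early genes encode transcription factors and feedback enzymes whose RNA appears within minutes of a stimulus without new protein synthesis and is then rapidly destroyed. Many RNAs of chemokines and IL-1 family cytokines are also short-lived. Interferon-stimulated genes are switched on through the type I interferon receptor, and genes of cholesterol synthesis by SREBP2.

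The cells carried the eosinophil programme at both times. Prg2 was at 46216 FPKM at 1 h and 47233 FPKM at 4 h, and Epx at 2158 and 2027 FPKM. The eotaxin receptor gene Ccr3 was at 533 and 437 FPKM, and Siglec5, the symbol these tables give to a sialic acid-binding receptor, at 239 and 245 FPKM. None of these 4 genes was past the 2-fold rule. Of the 19 eosinophil markers compared, 1 was higher and 0 were lower at 4 h, with a median difference of -0.09 on the log2 scale. The 1 was Itgax, an integrin chain that is also a dendritic cell marker.

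Summed levels were 739248 FPKM in the 1 h library and 728873 FPKM in the 4 h library. Depth was estimated from the most frequent ratio between the 2 libraries among transcripts below 0.3 FPKM in both. By it 1 read was worth 1.35 times as much FPKM at 4 h as at 1 h, a relative depth of 0.739 for the 4 h library. This ratio also holds any difference in scaling between the tables of the 2 times, so it is not a ratio of read counts. Separately, the most frequent low product of FPKM and length among long transcripts was taken as 1 read. By that estimate an FPKM of 1 stood for about 19.4 reads per kilobase at 1 h and 14.4 at 4 h. The 2 tables were scaled separately, and the median difference over all genes compared was 0.0993 on the log2 scale. The libraries of 1 h also stood apart by RNA of heart muscle, whose 41 markers summed to 271 FPKM in untreated cells at 1 h and 19.4 FPKM at 4 h, and counts are given below with and without these markers.

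Of the 10823 genes compared, 96 (0.887%) were higher and 169 (1.56%) were lower at 4 h. Small RNA genes (snoRNA, microRNA and similar loci, whose short transcripts give unstable FPKM) held 45 of the former and 41 of the latter although only 131 of them were compared, so 34.4% of them were higher and 31.3% lower. Among the other 10692 genes, 51 (0.477%) were higher and 128 (1.2%) were lower, and the central 90% of differences ran from -0.45 to 0.60 on the log2 scale. The nearest values on each side of the rule were Oas1a at -1.002 (lower) and Thap11 at 1.006 (higher). Just outside it lay Ramp1 at 0.9996 and the predicted gene Gm7334 at -0.9977. Counts below leave out the small RNA genes, so shares of a gene list are to be read against 0.477% higher and 1.2% lower.

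**Figure D1:**
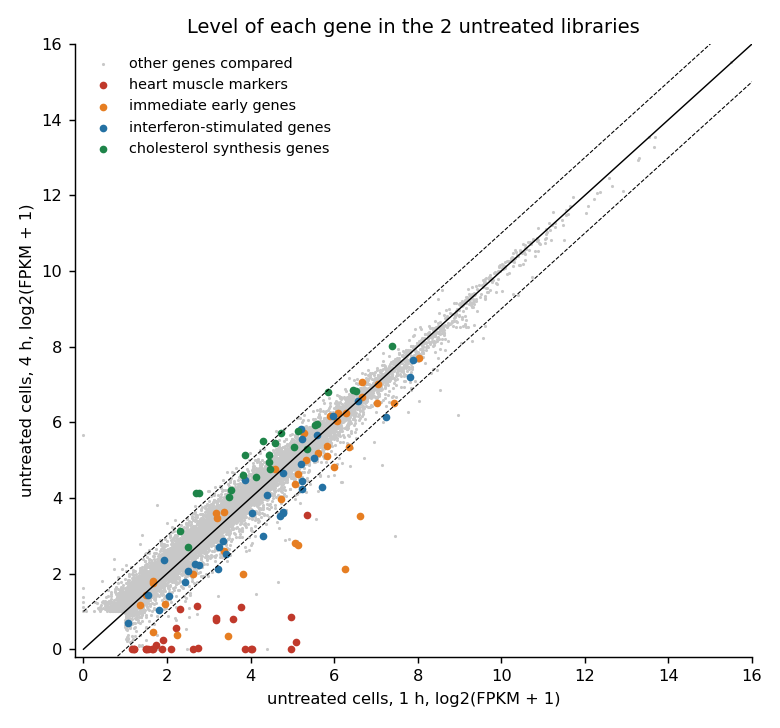
Level of each of the genes compared in untreated cells at 1 h (x axis) and at 4 h (y axis), both as log2(FPKM + 1), with 1 point per gene and no replicates. The solid line marks equal levels and the dashed lines mark the 2-fold rule, and most points lie between the dashed lines, while heart muscle markers (red) and some immediate early genes (orange) lie far below them and 23 of 24 cholesterol synthesis genes (green) lie above the line of equal levels.

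A part of the immediate early genes was lower at 4 h. Of 43 listed, 39 were compared, and 10 were lower (Egr1, Egr2, Egr3, Fosb, Fosl1, Nr4a1, Nr4a3, Plk3, Dusp5 and Rgs1), 0 were higher, and the median difference was -0.46 on the log2 scale. Egr3 (mm9 chr14:70477252-70479964), a zinc finger transcription factor, was at 75.7 FPKM in untreated cells at 1 h and 3.39 FPKM at 4 h. With IL-4 it was at 88.7 and 3.62 FPKM at the same times, and with IL-33 at 263 and 9.27 FPKM. All 3 libraries of 1 h were thus above all 3 libraries of 4 h. The untreated difference was -4.13 on the log2 scale.

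The gene of the stress-responsive kinase Plk3 (mm9 chr4:116799418-116806557) was at 96.9 FPKM at 1 h and 10.5 FPKM at 4 h, a log2 difference of -3.09. Egr1 was at 33.9 and 5.79 FPKM and Egr2 at 13.1 and 3.00 FPKM in untreated cells. The orphan nuclear receptor gene Nr4a1 was at 32.3 FPKM at 1 h and 5.96 FPKM at 4 h. All 4 genes were lower at 4 h, and none was near 0 at 4 h. The AP-1 subunit genes were not alike. Fosb was at 9.94 FPKM at 1 h and 0.27 FPKM at 4 h and Fosl1 at 3.73 and 0.29 FPKM, and both, like Nr4a3 (2.14 and 0.38 FPKM), entered the comparison only through the 1 h library. In contrast, Fos was at 58.5 and 70.3 FPKM, Jun at 8.17 and 10.0 FPKM and Junb at 65.5 and 64.6 FPKM. Fos, the best known gene of the list, was therefore not lower at 4 h. Dusp5, a phosphatase that switches off ERK, was at 81.3 and 39.9 FPKM, and Rgs1, a brake on G-protein signalling, at 62.9 and 27.2 FPKM. The related phosphatase genes Dusp1 and Dusp6 were at 55.8 and 33.4 FPKM and at 55.3 and 30.0 FPKM, which did not reach the rule.

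**Figure D2:**
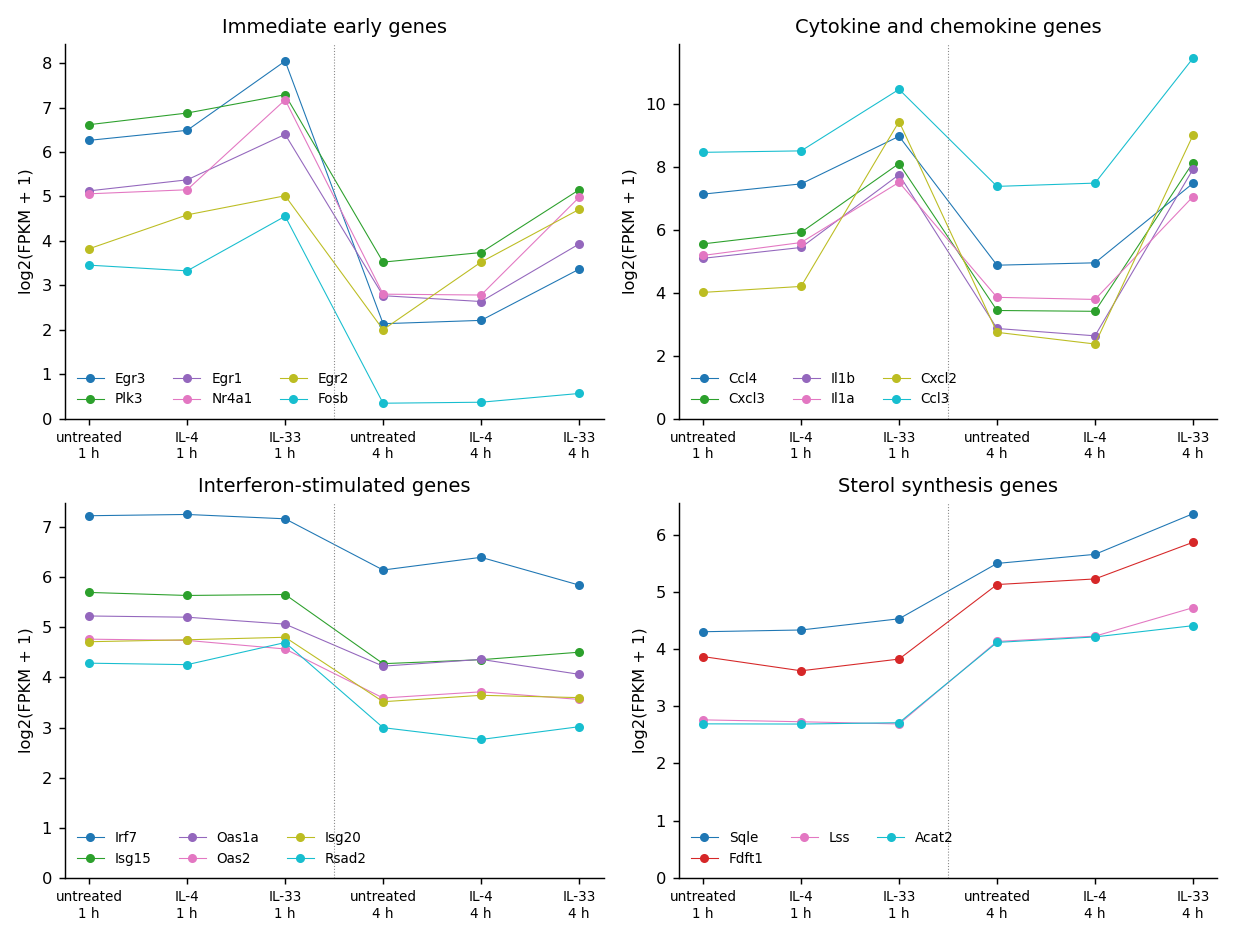
Levels of 22 genes in each of the 6 libraries as log2(FPKM + 1), in 4 panels, with 1 point per gene and library and lines that only join the points of a gene (libraries of 1 h left of the dotted line, of 4 h right of it; IL-33 values come from tables scaled separately). Within each treatment the immediate early and interferon-stimulated genes shown are lower at 4 h than at 1 h and the sterol genes higher, whereas Il1b, Cxcl3 and Ccl3 were at least as high at 4 h as at 1 h with IL-33.

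Some chemokine genes and both IL-1 genes were lower at 4 h in untreated cells. Of 25 chemokine genes listed, 17 were compared, and 4 were lower and 0 higher, and the list's median was -0.18. Ccl4, an attractant of monocytes and T cells, was at 140 FPKM at 1 h and 28.4 FPKM at 4 h, and Ccl3, its neighbour, at 354 and 166 FPKM. The neutrophil attractant genes Cxcl3 and Cxcl2 were at 46.1 and 9.84 FPKM and at 15.2 and 5.69 FPKM. Of 40 cytokine and growth factor genes listed, 21 were compared, and 2 were lower and 1 higher. The lower ones were Il1b, at 33.3 and 6.29 FPKM, and Il1a, at 35.5 and 13.5 FPKM, which encode both forms of IL-1. The higher one was Tnfsf13, listed at 0 at 1 h and at 1.36 FPKM at 4 h, which entered the comparison only through the 4 h library. Il4 itself was at 80.3 FPKM at 1 h and 87.4 FPKM at 4 h, Il6 at 7.73 and 5.01 FPKM, Il13 at 2.13 and 1.02 FPKM and Tnf at 9.09 and 7.76 FPKM, and none of these 4 genes was past the rule. The decoy receptor for IL-1, Il1r2, was also lower, at 366 FPKM at 1 h and 115 FPKM at 4 h.

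In the pair of libraries given IL-33, some of these genes kept the untreated order and some did not. There Il1b was at 216 FPKM at 1 h and 243 FPKM at 4 h, and Cxcl3 at 276 and 282 FPKM. Ccl3 was at 1423 and 2827 FPKM. In contrast, Ccl4 was lower at 4 h, at 505 and 178 FPKM, and so was Il1r2, at 403 and 107 FPKM. Cxcl2 was at 699 and 516 FPKM and Il1a at 182 and 133 FPKM, neither past the rule. With IL-4, Il1b was at 42.5 and 5.20 FPKM, Cxcl3 at 59.7 and 9.64 FPKM and Ccl3 at 366 and 179 FPKM. The IL-4 pair thus had the untreated order for these 3 genes, while the IL-33 pair had it for Ccl4, Il1r2, Cxcl2 and Il1a and not for Il1b, Cxcl3 and Ccl3. The difference between the pairs was not tested, since each group has 1 library.

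Targets of the transcription factor NF-kB as a list were centred near 0, with a median of -0.02, and 5 of the 33 compared (of 36 listed) were lower and 0 higher. Those lower were Irg1 (the itaconate-forming enzyme) at 27.4 and 6.41 FPKM, Ptgs2 (inducible cyclooxygenase) at 4.44 and 0.46 FPKM, Clec4e (a lectin that senses mycobacterial glycolipid) at 72.1 and 20.5 FPKM, Ccrl2 at 62.7 and 23.4 FPKM and Olr1 (a scavenger receptor for oxidised lipoprotein) at 67.8 and 32.2 FPKM. Other named genes with a large gap were Adora2a, the adenosine receptor that raises cyclic AMP, at 16.5 FPKM at 1 h and 1.76 FPKM at 4 h, and Cass4, an adhesion scaffold, at 24.3 and 2.42 FPKM. Pmaip1, which encodes the death-promoting protein NOXA, was at 104 and 32.4 FPKM. The transcription factor gene Cebpb was at 259 and 92.8 FPKM, and Slc16a3, a lactate exporter, at 624 and 280 FPKM. The clock gene Per1, a transcript of which the authors' deposited table marks as a failed estimate in at least 1 comparison, was at 24.8 and 8.26 FPKM. All of these were lower by the rule, and Ptgs2 entered the comparison only through the 1 h library.

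Further genes of surface receptors and matrix were lower, named here after their values were seen. Thbs1, the adhesive matrix protein thrombospondin-1, was at 217 FPKM at 1 h and 75.5 FPKM at 4 h, at 204 and 58.1 FPKM with IL-4 and at 649 and 158 FPKM with IL-33. F2r, the thrombin receptor gene, was at 82.7 and 27.7 FPKM in untreated cells, and Trem1, a receptor that amplifies inflammatory signals in myeloid cells, at 29.4 and 6.53 FPKM. All 3 genes were lower in all 3 pairs. Other lists were split or little affected. Of 25 FoxO-linked genes compared, 2 were lower and 1 was higher, with Trib1, a pseudokinase gene, at 66.5 and 28.8 FPKM. Of 16 glucocorticoid-response genes compared, 2 were lower (Il1r2 and Per1) and 1 was higher (Pik3ip1). Of 19 heat shock genes compared, 2 were lower and 0 higher: the co-chaperone gene Dnajb4, at 13.5 and 5.48 FPKM, and Hspb1, at 1.83 and 0.18 FPKM. Hspb1, like Pdk4 (1.51 and 0.067 FPKM) in the FoxO-linked list, entered the comparison only through the 1 h library. With IL-4 the log2 differences of Hspb1 and Pdk4 were -0.98 and -1.03, and with IL-33 they were -1.05 and -0.98. The summed level of the heart muscle markers, described below, was likewise smaller at 4 h than at 1 h in each treatment. Whether heart muscle RNA contributed to the values of either gene was not tested.

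**Figure D3:**
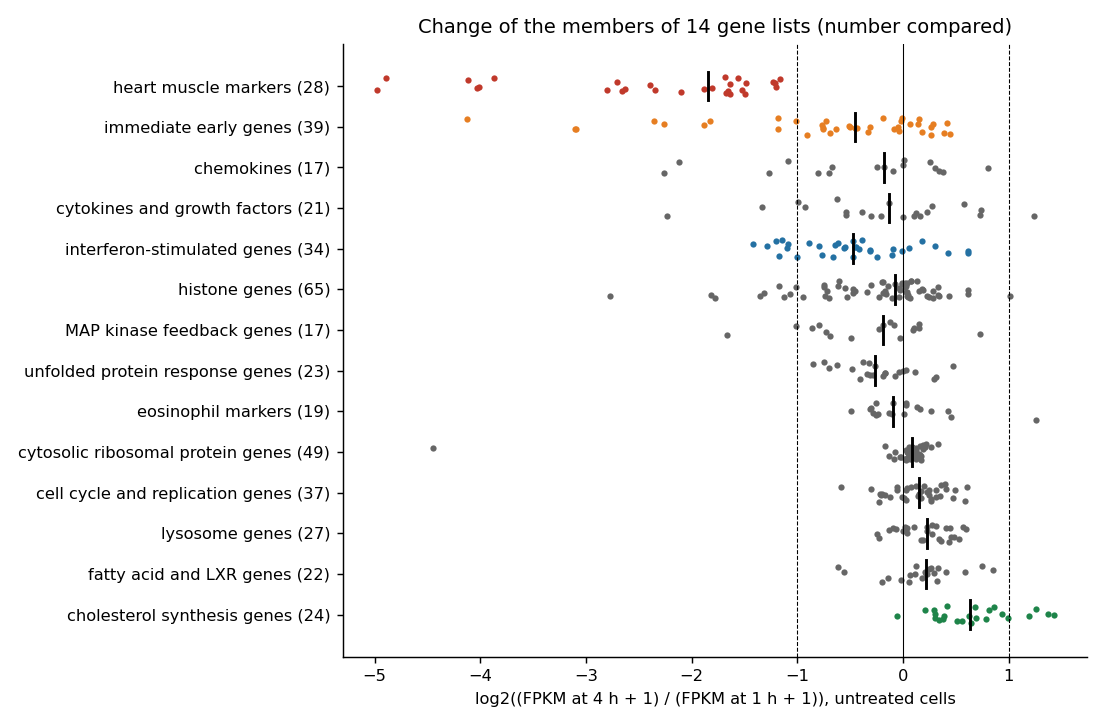
Difference between 4 h and 1 h in untreated cells, on the log2 scale of the x axis, for each compared member of 14 gene lists, with 1 point per gene, the number of genes in parentheses and the list's median as a bar. Dashed lines mark the 2-fold rule. The median of heart muscle markers lies lowest, at -1.84, but each compared member had entered the comparison through the 1 h library. The median of cholesterol synthesis genes lies at 0.64, and those of immediate early and interferon-stimulated genes at -0.46 and -0.47. Medians of most other lists lie close to 0.

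Most interferon-stimulated genes lay below 0 at 4 h, and a part of them was lower by the rule. Of 35 listed, 34 were compared, of which 8 were lower, 0 were higher, 28 were below 0, and the median was -0.47 against 0.0993 for all genes. With a pseudocount of 5 in place of 1, 2 genes of the list were lower. Isg15, a ubiquitin-like modifier, was at 50.9 FPKM in untreated cells at 1 h and 18.4 FPKM at 4 h. It was at 48.8 and 19.5 FPKM with IL-4 and at 49.5 and 21.7 FPKM with IL-33, so the libraries of 1 h lay close together and above those of 4 h. The antiviral genes Rsad2 and Isg20 were at 18.5 and 6.99 FPKM and at 25.3 and 10.4 FPKM in untreated cells. The 2',5'-oligoadenylate synthetase genes Oas1a, Oas2 and Oas3, which activate RNase L, were at 36.5 and 17.7, 26.2 and 11.0, and 26.5 and 11.4 FPKM. Near-identical copies of Oas1a can share reads. Irf7, the transcription factor that amplifies the interferon response, was at 149 and 69.8 FPKM, and Ifi44 at 8.27 and 3.35 FPKM. The list was not lower throughout. Irf1 was at 36.1 FPKM at 1 h and 56.0 FPKM at 4 h. All 8 genes were past the rule in the same direction in the IL-33 pair and 5 of the 8 in the IL-4 pair.

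The promoters of 3 of these genes are shown because they carry the interferon-stimulated response element, searched as GAAA, any 2 bases and GAAA on both strands. This motif was chosen after the data had been seen. The sequences are the 250 bases before the RefSeq start, in build GRCm38.p6, written 5' to 3' on the strand of the gene, and capitals mark every match, overlapping matches together.
Isg15 (chr4:156200819-156201068, minus strand): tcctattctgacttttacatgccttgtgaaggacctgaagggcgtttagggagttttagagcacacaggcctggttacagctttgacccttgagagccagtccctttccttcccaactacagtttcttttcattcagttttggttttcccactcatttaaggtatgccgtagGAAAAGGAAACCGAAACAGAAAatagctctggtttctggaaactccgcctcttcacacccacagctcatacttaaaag
Rsad2 (chr12:26456453-26456702, minus strand): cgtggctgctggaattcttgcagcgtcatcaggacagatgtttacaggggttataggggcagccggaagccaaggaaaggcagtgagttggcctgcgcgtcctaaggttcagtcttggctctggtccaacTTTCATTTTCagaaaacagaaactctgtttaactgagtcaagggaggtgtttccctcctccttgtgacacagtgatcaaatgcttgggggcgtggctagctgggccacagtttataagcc
Oas1a (chr5:120907526-120907775, minus strand): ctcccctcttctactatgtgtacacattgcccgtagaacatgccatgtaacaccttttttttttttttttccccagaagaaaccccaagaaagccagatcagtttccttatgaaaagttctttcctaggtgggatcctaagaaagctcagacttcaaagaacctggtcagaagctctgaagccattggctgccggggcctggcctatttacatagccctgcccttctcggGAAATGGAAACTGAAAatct
Isg15 held 3 overlapping matches, Oas1a 2 and Rsad2 1, the last in the opposite orientation. In windows reaching from 250 bases before to 50 bases after the start, 15 of the 28 interferon-stimulated genes with a promoter in the RefSeq table held the element (53.6%). It was held by 3.49% of all 27025 promoters and 3.25% of the 8607 promoters of genes compared. The share of the list takes in its genes whatever their difference, so it does not bear on 4 h against 1 h. Of the 75 promoters of lower genes (small RNA genes and heart muscle markers left out), 5 held the element (6.67%). Of the 40 promoters of higher genes, 1 held it (2.5%). Of the other lower genes of the list, Oas3 also held the element, and Isg20, Ifi44 and Irf7 held none in this window.

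Cholesterol synthesis genes lay above 0 at 4 h with 1 exception, though few passed the 2-fold rule. Of 26 listed, 24 were compared, of which 4 were higher, 0 were lower and 23 lay above 0, with a median of 0.64. Acat2 (mm9 chr17:13135908-13153591), a thiolase at the entry of the pathway, was at 5.47 FPKM in untreated cells at 1 h and 16.4 FPKM at 4 h. It was at 5.45 and 17.6 FPKM with IL-4 and at 5.56 and 20.3 FPKM with IL-33. The 3 libraries of 1 h differed little, and all 3 libraries of 4 h lay above them. Fdft1 (squalene synthase) was at 13.6 and 34.1 FPKM, Sqle (squalene epoxidase) at 18.8 and 44.3 FPKM and Lss (lanosterol synthase) at 5.79 and 16.6 FPKM. These enzymes act one after another in the pathway. Idi1 (isopentenyl diphosphate isomerase), at 25.6 and 52.0 FPKM, lay just short of the rule, and Sc4mol, a sterol methyl oxidase, was at 56.8 and 110 FPKM. All 4 higher genes were higher in both other pairs. Aacs, which feeds acetoacetate into sterol synthesis, was at 18.9 and 45.6 FPKM. Of 22 fatty acid and LXR-linked genes, 0 were higher and 0 lower, and Fasn (fatty acid synthase) was at 8.29 and 15.8 FPKM.

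Genes of several other functions were higher. Qpct, glutaminyl cyclase, was at 1.65 FPKM at 1 h and 7.09 FPKM at 4 h. Gfi1, a transcriptional repressor of granulocyte development, was at 1.57 FPKM at 1 h and 5.82 FPKM at 4 h, at 1.79 and 6.22 FPKM with IL-4, and at 1.25 and 4.94 FPKM with IL-33. Itgax was at 14.0 FPKM at 1 h and 34.9 FPKM at 4 h. Of the 23 monocyte, macrophage and dendritic cell markers compared, 0 were lower, and the summed level of the whole list was 3423 FPKM at 1 h and 2690 FPKM at 4 h. Plau, the urokinase gene, was at 14.7 and 35.5 FPKM, Tob1, an antiproliferative gene, at 23.3 and 53.8 FPKM, and Cd101, an inhibitory surface receptor, at 10.8 and 24.8 FPKM. Pik3ip1, an inhibitor of PI3 kinase, was at 11.2 and 24.4 FPKM. Centred on the median of all genes, the last gene fell short of the rule, at 0.96. With IL-33, Pik3ip1 was at 5.92 and 5.43 FPKM, Qpct at 1.94 and 2.26 FPKM and Plau at 16.03 and 21.6 FPKM, and none of these 3 was higher in that pair.

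Histone genes, a list added after the data had been seen, held 9 lower and 1 higher of the 65 compared (81 listed). All 4 linker histone (H1) genes compared were lower, with a median of -1.80, against 3 of 16 H2B genes, 1 of 10 H3 genes, 1 of 12 H4 genes and 0 of 23 H2A genes. Hist1h1c (mm9 chr13:23830676-23832236), a linker histone that compacts nucleosome arrays, was at 500 FPKM in untreated cells at 1 h and 72.4 FPKM at 4 h. It was at 501 and 73.7 FPKM with IL-4 and at 546 and 82.0 FPKM with IL-33, so the 3 treatments gave nearly the same pair of levels. H1f0, the linker histone of resting cells, was at 143 and 62.8 FPKM, Hist1h1e at 8.30 and 1.65 FPKM and Hist1h1d at 5.58 and 0.92 FPKM, the last entering the comparison only through the 1 h library. Hist1h4m (3.54 and 0.78 FPKM) likewise entered only through the 1 h library, and the 1 higher gene, Hist1h2ao (listed at 0 and 1.02 FPKM), only through the 4 h library. H3f3b, a gene of the replication-independent variant H3.3, was at 749 and 301 FPKM. In H2B genes the median was -0.71, with 15 of 16 below 0, and in H2A genes it was 0.03. Most replication-dependent histone RNAs lack a poly(A) tail and have near-identical copies, so that their single values are uncertain. The 37 cell cycle and replication genes compared had 0 higher and 0 lower.

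A search of 9 motifs in the promoters gave a gap between the 2 directions for the TATA box, searched as TATAAA on both strands. It was in 19 of the 75 promoters of lower genes matched (25.3%, heart muscle markers and small RNA genes left out) and in 1 of the 40 promoters of higher genes (2.5%). The share was 7.12% over the genes compared and 14.2% over all promoters. The AP-1 site, TGANTCA, was in 14.7% of the promoters of lower genes and 10% of those of higher genes, against 5.01% of the genes compared. The NF-kB site, searched as GGGA, any 4 bases and CC, was in 34.7% and 20%, against 25.6%. Shares for the E-box CACGTG, the ATF4 element (TGATG, any base, AA) and the heat shock element (TTC, GAA and TTC, each 2 bases apart) were 9.33%, 1.33% and 0% in lower genes, and 10.7%, 2.29% and 0.372% over the genes compared. The sterol response element, searched as ATCAC, any base and CCAC after the data had been seen, was in 0 of the 17 promoters of cholesterol synthesis genes and in 0.128% of those of the genes compared, so that a count of 0 in 17 shows nothing. The CArG box, added likewise, was in 2 of the 75 promoters of lower genes (2.67%) and in 3 of the 31 of immediate early genes (9.68%), against 1.41% of the genes compared. A match is a stretch of letters and not a shown binding site. Promoters of 3 lower genes with a TATA box are given as examples from a cytokine, a chemokine and a linker histone gene, with the match in capitals and the same window, build and strand as above.
Il1b (chr2:129371140-129371389, minus strand): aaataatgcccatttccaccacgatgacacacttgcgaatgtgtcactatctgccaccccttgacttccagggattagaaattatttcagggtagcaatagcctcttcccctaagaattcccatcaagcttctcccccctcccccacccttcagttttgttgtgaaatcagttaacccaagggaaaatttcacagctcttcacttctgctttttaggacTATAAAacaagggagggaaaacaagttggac
Cxcl3 (chr5:90785851-90786100, plus strand): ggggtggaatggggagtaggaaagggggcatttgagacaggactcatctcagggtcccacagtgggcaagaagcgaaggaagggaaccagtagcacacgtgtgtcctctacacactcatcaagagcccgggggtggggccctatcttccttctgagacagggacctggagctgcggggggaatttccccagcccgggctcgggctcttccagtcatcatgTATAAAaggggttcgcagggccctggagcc
Hist1h1e (chr13:23622559-23622808, minus strand): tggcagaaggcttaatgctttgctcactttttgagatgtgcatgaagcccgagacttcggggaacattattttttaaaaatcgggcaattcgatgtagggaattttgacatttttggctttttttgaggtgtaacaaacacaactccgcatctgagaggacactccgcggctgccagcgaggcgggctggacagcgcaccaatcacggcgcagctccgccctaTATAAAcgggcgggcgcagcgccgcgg
The match began 31 bases before the start in Il1b, 30 in Cxcl3 and 27 in Hist1h1e.

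Markers of heart muscle differed between the libraries as well. Of 41 heart muscle markers, 28 reached 1 FPKM at 1 h and 4 at 4 h, and 3 against 21 were listed at 0. Mb (myoglobin) was at 30.5 FPKM at 1 h and listed at 0 at 4 h, Myl2 (ventricular myosin light chain) was at 33.1 and 0.15 FPKM, Actc1 (cardiac actin) at 30.4 and 0.81 FPKM, and Myh6 (cardiac myosin heavy chain) at 15.4 FPKM and listed at 0. The summed level of the list was 271 FPKM in untreated cells, 205 FPKM with IL-4 and 207 FPKM with IL-33 at 1 h, and 19.4, 27.3 and 36.3 FPKM at 4 h. Most of each 4 h sum was 1 gene, Cox7a1, at 10.7, 17.2 and 27.4 FPKM at 4 h in the same order of treatments. At 1 h Cox7a1 was at 39.8, 33.3 and 38.7 FPKM. Its log2 difference was -0.91 with IL-4 and -0.48 with IL-33, neither past the rule. In untreated cells the 28 compared members were all lower. Because each had entered the comparison through the 1 h library, this count supports nothing. In bulk RNA, fewer cells of a type and less RNA per cell cannot be told apart. The values do not show whether these RNAs came from cells of the cultures at all, and their source was not tested. These RNAs made up 0.0366% of the summed FPKM at 1 h and 0.00266% at 4 h. The transcription factor genes of the list were close to 0 at both times. Nkx2-5 was at 0.22 FPKM at 1 h and listed at 0 at 4 h, Gata4 was at 0.059 FPKM and listed at 0, and Tbx5 was at 0.066 and 0.0080 FPKM. Leaving out the list and the small RNA genes left 51 higher and 100 lower genes. Genes outside the list with a similar pattern stayed among the 100. Lmod2 was at 1.18 FPKM and Fxyd1 at 1.15 FPKM in untreated cells at 1 h, and both were listed at 0 at 4 h in every treatment. Hspb1 and Pdk4, described above, were also among the 100. Whether the 100 are free of heart muscle RNA was not tested.

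The summed level of the heart muscle markers separated 1 h from 4 h in all 3 treatments, and their part in the results above was not tested. Keratin genes, a list added after the data had been seen, differed in the opposite direction. Since Krt14, Krt17 and Krt5 entered the comparison only through the 4 h library, no count is read from them. Krt17 was listed at 0 in untreated cells at 1 h and at 2.10 FPKM at 4 h, Krt14 was listed at 0 and at 1.62 FPKM, and Krt5 was at 0.048 and 1.03 FPKM. In the libraries given IL-4 and IL-33, Krt17 was at 1.19 and 0.88 FPKM at 4 h. Among markers of other blood cells, erythroid and megakaryocyte genes had 1 higher (Epor, at 3.36 and 8.45 FPKM) and 1 lower (Hbb-b2, at 1.52 and 0.079 FPKM, compared only through the 1 h library) of 10 compared. In contrast, 0 of 22 neutrophil, 0 of 10 mast cell and basophil, and 0 of 9 lymphoid genes compared were past the rule in either direction. Summed levels of the last 3 lists were 8786 and 9876, 469 and 465, and 46.6 and 49.9 FPKM at 1 h and 4 h.

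**Figure D4:**
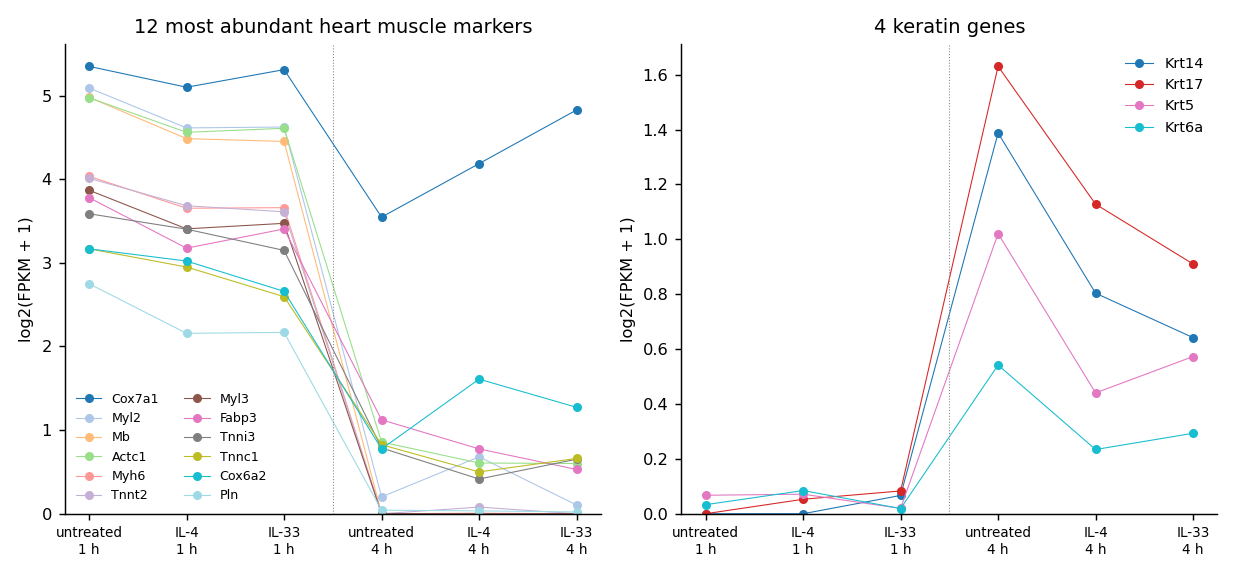
Levels of the 12 most abundant heart muscle markers (left) and of 4 keratin genes (right) in each library as log2(FPKM + 1), with 1 point per gene and library and lines that only join the points of a gene. The heart muscle markers are lower in all 3 libraries of 4 h than in the 1 h library of the same treatment, and the keratin genes are above 0.2 on this scale only in the 3 libraries of 4 h.

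Several large groups held few or no genes past the rule. Of the 49 cytosolic ribosomal protein genes listed, which leave out Rpl26 (higher, described at the end), 1 was lower and 0 were higher. That gene, Rps27, was at 174 FPKM at 1 h and 7.01 FPKM at 4 h but at 4.94 and 5.70 FPKM with IL-4. With IL-33 it was at 73.7 and 5.601 FPKM, again lower, and it has processed copies that can take its reads. The respiratory chain (43 genes), lysosome (27), JAK-STAT feedback (30) and unfolded protein response (23) lists each had 0 higher and 0 lower. The last list had a median of -0.26 with 17 of 23 below 0, and Hspa5, the chaperone BiP of the endoplasmic reticulum, was at 225 FPKM at 1 h and 134 FPKM at 4 h. Of 23 antioxidant genes, 1 was lower, Srxn1 (sulfiredoxin), at 71.7 and 29.5 FPKM.

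The libraries given a cytokine form 2 further pairs of 4 h against 1 h that share no library with the untreated pair, and each pair also contains its own treatment. In the IL-4 pair, 99 of 10731 genes were higher (0.923%) and 117 lower (1.09%). In the IL-33 pair, 377 of 10620 were higher (3.55%) and 251 lower (2.36%). Of the 51 genes higher in untreated cells, 27 were also higher with IL-4 (52.9% of the 51 and 27.3% of the 99) and 19 with IL-33 (37.3% of the 51 and 5.04% of the 377). Of the 128 lower genes, 90 were also lower with IL-4 (70.3% of the 128 and 76.9% of the 117) and 83 with IL-33 (64.8% of the 128 and 33.1% of the 251). In each pair, 2 of the 51 higher genes and 0 of the 128 lower genes were past the rule in the opposite direction. Among these was the predicted gene LOC100302567, listed at 0 in untreated cells at 1 h and at 49.5 FPKM at 4 h. At 1 h it was at 37.5 FPKM with IL-4 and 29.9 FPKM with IL-33, and at 4 h it was listed at 0 in both. Without the listed heart muscle markers, 68 of 100 lower genes were shared with the IL-4 pair and 60 with the IL-33 pair. Of those 100 genes, 45 were lower in both other pairs, 23 only in the IL-4 pair, 15 only in the IL-33 pair and 17 in neither, counted by the 2-fold rule and without a test of the differences between pairs. Among small RNA genes, 13 of the 45 higher ones were also higher with IL-4, and 5 were lower there. Of the 41 lower ones, 6 were also lower with IL-4 and 9 were higher. With IL-33, 14 of the 45 and 12 of the 41 were shared, and 4 and 5 were past the rule in the opposite direction.

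**Figure D5:**
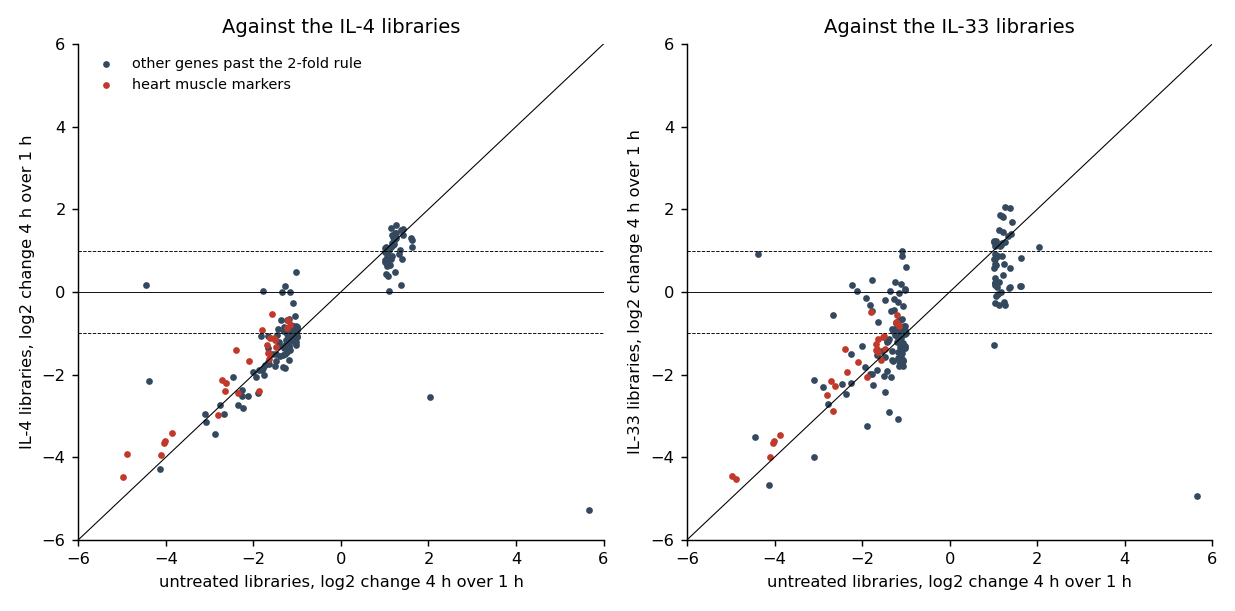
Log2 difference of 4 h over 1 h for each gene past the 2-fold rule in untreated cells, small RNA genes left out (x axis), against the same gene's difference in the IL-4 pair (left, y axis) and the IL-33 pair (right, y axis), with heart muscle markers in red, the diagonal marking equal differences and dashed lines the rule. In the IL-4 pair 123 of 128 lower and 49 of 51 higher genes are on the same side of 0. In the IL-33 pair 116 and 42 are on the same side. Most points lie near the diagonal in the IL-4 pair, but Rps27, Pisd-ps1, Rpl26 and LOC100302567 lie far from it. In each pair 2 of the 51 higher genes are past the rule in the opposite direction.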

How the data were processed

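RNA from 6 libraries was measured by single-read Illumina sequencing, 1 library per group. Per the submitters' processing notes, TopHat 1.4.1 and Cuffdiff 1.2.1 were used with build mm9. The deposited values are FPKM of 28702 RefSeq transcripts. Each of the 4 tables used pairs a treated library with the control of the same time. Trimming and the RefSeq release are not given in the sources used here. No per-sample column was left unmapped (0).

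Transcripts were summed per symbol, which gave 22548 symbols, 3869 of them with several transcripts and 232 at several loci. Untreated values are those deposited beside the IL-4 libraries. The same libraries in the IL-33 tables had values 0.945 (1 h) and 0.947 (4 h) times as large, for 100% of transcripts within 0.1%. The difference was log2((FPKM at 4 h + 1) / (FPKM at 1 h + 1)) for genes with FPKM of at least 1 in either library, and the rule of size was 2-fold (an absolute log2 difference of 1). The p-values of the authors' deposited tables compare reads of 2 libraries and were not used. Starts of mm9 loci were raised by 1 base to count from 1.

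The genes named were the 20 largest rises and 20 largest falls whose higher FPKM was 5 or more, small RNA and predicted genes passed over, up to 4 genes per list, every heart muscle marker with FPKM of at least 1 in any library, and further list members given as examples after their values were seen. Some genes covered by this rule are not reported here. The 38 gene lists, the members and the rules were chosen with earlier results of these data known, and the histone and keratin lists were added after seeing the data. Promoters came from RefSeq (GRCm38.p6), with 17088 of 22548 symbols matched. Intervals for FPKM were not computed, and the read equivalents given cover counting depth only. Alternatives were other pseudocounts, filters, scalings, centring, single transcripts and another fold. The steps were tested on simulated data. Python 3.11.15, pandas 2.3.3, numpy 2.4.6 and matplotlib 3.10.9 were used.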

Additional observations from a re-analysis of the deposited data

Results flagged for a closer look

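Rpl26, a ribosomal protein gene, was at 2.37 FPKM in untreated cells at 1 h and 12.9 FPKM at 4 h, a log2 difference of 2.04. In the IL-4 pair it was at 4.87 FPKM at 1 h and listed at 0 at 4 h, a difference of -2.55, and in the IL-33 pair it was at 3.89 and 9.43 FPKM. It was picked out because the untreated and the IL-4 libraries differ in opposite directions. That contrast rests on the value of 0, which can also be a failed estimate. The difference between the pairs was not tested, since each group has 1 library, and processed copies of the gene can share its reads.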

How the results depend on the processing

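The counts of 96 higher and 169 lower genes are of single libraries and depend on the scale. A pseudocount of 0.1 gave 235 higher and 227 lower genes, and one of 5 gave 51 and 95. Taking each transcript on its own gave 397 higher and 437 lower, and a 1.5-fold rule gave 640 higher and 396 lower. Leaving out small RNA genes gave 51 higher and 128 lower. Added after seeing the data, leaving out small RNA genes and heart muscle markers gave 51 higher and 100 lower, and keeping the main locus of each symbol gave 95 and 169. With no filter, a minimum of 5 FPKM, the IL-33 tables' control columns, or centring on the median, the counts lay within 1.5 times those reported (77 to 96 higher and 125 to 194 lower). Over all genes, 40 higher and 96 lower genes were shared with the IL-4 pair and 33 and 95 with the IL-33 pair. With a pseudocount of 0.1 the higher genes shared were 107 and 88, with a pseudocount of 5 they were 20 and 18 (52 and 48 lower), and without small RNA genes 19 higher genes were shared with the IL-33 pair. Of 174 named genes, 35 lost the rule with a pseudocount of 5, and no direction was reversed under the 4 settings run on them. The cause of these shifts was not tested beyond the settings themselves. No paired analysis was possible because the groups share only 1 replicate number. A fit of time over the 3 treatments, which would take the treatments as replicates, was not run. With a pseudocount of 5, lower genes numbered 2 in place of 8 in the interferon-stimulated list, 3 in place of 5 in the NF-kB list, 4 in place of 9 among histones and 13 in place of 28 among heart muscle markers. At about 14.4 reads per kilobase for 1 FPKM at 4 h, genes near the filter have few reads, and their differences are the least precise.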
